A study of Mus musculus with 26 samples.

Results

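The microRNA miR-9 is counted here in 3 precursor entries, mmu-mir-9-1, mmu-mir-9-2 and mmu-mir-9-3 (mir-9-1, mir-9-2 and mir-9-3 from here on), taken from a table of small RNA counts by their names. They are 3 of 1054 microRNA (miRNA) entries and 3 of 1360 entries in all. Their level was followed by hippocampal region, stress, block and depth, here the total miRNA count of a library. Small RNA was sequenced from the hippocampus of male C57BL/6J mice aged 2 to 3 months, to ask whether miRNAs change shortly after an acute stress. The 26 libraries came from ventral hippocampus (vHC) of control mice (n = 8), vHC of swim-stressed mice (n = 6), dorsal hippocampus (dHC) of control mice (n = 6) and dHC of swim-stressed mice (n = 6). Control mice stayed in the home cage. Stressed mice swam for 6 min in water at 18 °C, and tissue was taken 45 min after the swim began. Tissue came from both hemispheres, the labels name no transgene in any group, and they place each library in 1 of 3 dated blocks, each holding all 4 groups. The labels do not say which libraries share an animal, so p-values measure the spread between these libraries.

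miR-9 is a miRNA of the nervous system, where it is known for its part in the change from dividing neural progenitors to neurons. A miRNA is cut from a hairpin precursor, loaded into an Argonaute protein and guided to target mRNAs mainly through its seed, a short stretch near the 5′ end, after which the target is repressed or degraded. The mouse genome holds several copies of the mir-9 hairpin, and each gives a product from its 5′ arm (miR-9-5p, the arm known to repress factors such as REST, a silencer of neuronal genes, and TLX) and one from its 3′ arm (miR-9-3p, also called miR-9*).

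Both mature products are shown because their seeds define what the entries count, with bases 2 to 8 in capitals, as listed by RefSeq on GRCm38.p6. All 3 entries were matched to this source.
mmu-miR-9-5p: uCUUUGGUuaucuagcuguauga
mmu-miR-9-3p: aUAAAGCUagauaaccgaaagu
The seeds of the arms differ from each other. Of the 1679 mature mouse miRNAs in the RefSeq table, 0 others carried either seed, so no second seed family had to be counted with mir-9.

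The 3 hairpins are shown because they explain what can and cannot be told apart in a count, with the mature arms in capitals (RefSeq, GRCm38.p6, all on the plus strand).
mir-9-1: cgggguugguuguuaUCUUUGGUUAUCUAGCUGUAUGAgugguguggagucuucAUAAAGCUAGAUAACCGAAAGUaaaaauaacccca
mir-9-2: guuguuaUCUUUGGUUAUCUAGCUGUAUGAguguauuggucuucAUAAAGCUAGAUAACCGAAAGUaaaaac
mir-9-3: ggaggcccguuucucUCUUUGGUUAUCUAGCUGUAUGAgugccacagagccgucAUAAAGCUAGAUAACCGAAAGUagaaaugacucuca
The capitals are the same in all 3, so a read of either mature arm cannot be assigned to a copy. The entries differ in the loop and flanking bases. Around the 5′ arm, mir-9-1 and mir-9-2 shared 7 bases before and 3 after it, a common run of 33 bases, whereas mir-9-3 shared 0 before and 3 after it with either of them, a run of 26 bases. Around the 3′ arm, mir-9-1 and mir-9-2 shared 6 bases before and 5 after it, and mir-9-3 shared 2 before and 1 after it with either.

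The copies lie on different chromosomes, in the coordinates of GRCm38. The mir-9-1 hairpin is at chr3:88215598-88215686, in introns of the lincRNA gene Gm3764 in all 5 transcripts that span it, and an annotated miRNA gene, Gm25641, covers it on the opposite strand. The mir-9-2 hairpin is at chr13:83738814-83738885 within the lincRNA gene C130071C03Rik, where it overlaps an exon in 2 of the 3 transcripts that span it. The mir-9-3 hairpin is at chr7:79505264-79505353, in introns of its host gene Mir9-3hg in all 4 transcripts that span it. Because the mature products are common to the copies, the counts do not measure the output of each locus, and because an entry pools both arms, they do not separate miR-9-5p from miR-9-3p.

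mir-9 was the most abundant miRNA in 26 of 26 libraries. Summed over the 3 entries, its share of all miRNA counts averaged 11.7% ± 1.38 (SD, n = 26). The lowest share was 9.29%, in library 28 (swim-stressed dHC), and the highest was 16.004%, in library 24 (control dHC). After the copies of each miRNA were summed, mir-26a, a widely expressed miRNA, came next with a mean share of 5.64% ± 0.761 (SD, n = 26), so that the mean for mir-9 was 2.07 times larger. mir-128 and mir-124, both enriched in neurons, and mir-125b followed with mean shares of 4.30%, 4.27% and 3.58%. The 28 entries of a list of other neural miRNAs together held between 27.6% and 32.4% of the miRNA counts.

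Depth ranged from 465387 total miRNA counts in library 24 to 4819724 in library 28. Wilson 95% intervals for the mir-9 share were between 0.0518 and 0.211 percentage points wide in single libraries and cover counting error only. Library 24 stood apart as the shallowest library and the one with the highest mir-9 share, and values without it are given beside the comparisons that include it. Without it the mean share over the other 25 libraries was 11.5% ± 1.08 (SD).

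The first question was whether the mir-9 level followed stress. In vHC of control mice the share ranged from 11.2% through a median of 11.8% to 13.4% (n = 8), and in vHC of stressed mice from 10.8% through 11.4% to 12.6% (n = 6). In dHC of control mice it ranged from 9.76% through 10.8% to 16.004% (n = 6), and in dHC of stressed mice from 9.29% through 11.2% to 13.7% (n = 6). The 4 ranges overlapped, and the extremes of all libraries both fell in dHC. In order of their means, control vHC stood first (11.9% ± 0.839), followed by control dHC (11.7% ± 2.32), stressed vHC (11.6% ± 0.729) and stressed dHC (11.5% ± 1.56; SD throughout), and no neighbours in this order differed beyond their spread. Without library 24, control dHC had a mean of 10.8% ± 1.05 (SD, n = 5) and stood last.

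**Figure D1:**
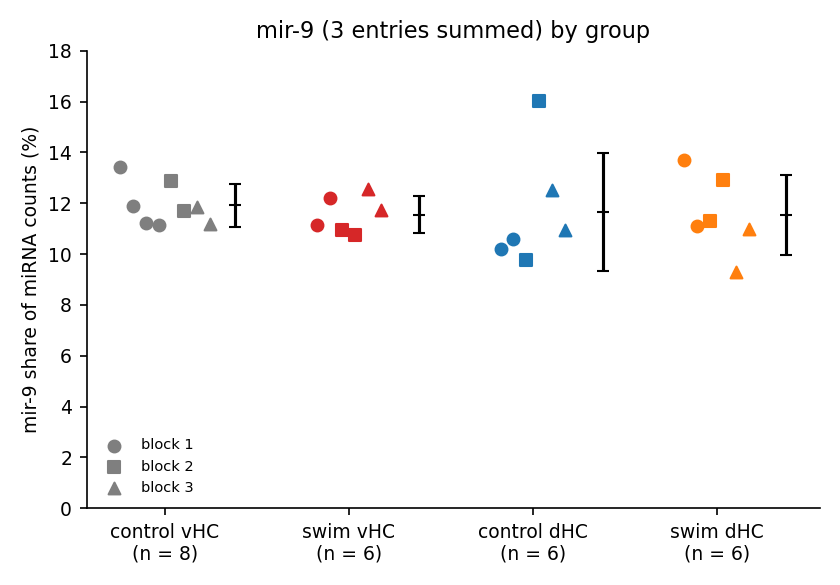
Share of all miRNA counts held by the 3 mir-9 entries together (y axis, percent) in each library, by group, with the block as the symbol and the mean and SD beside the points. The 4 groups overlap, with means from 11.5% to 11.9%, and the highest point, at 16.004%, is the shallowest library.

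The share differed by -0.361 percentage points between stressed and control vHC (stressed minus control; two-sided exact permutation test, p = 0.417) and by -0.131 points between stressed and control dHC (p = 0.922). Adjusted over the 4 comparisons of shares by the Benjamini-Hochberg method, both exact permutation p-values were 0.987. Without library 24, the difference in dHC was 0.735 points, of the opposite sign (exact permutation p = 0.387, 0.556 after adjustment). Within the blocks the difference changed sign. In vHC it was -0.265, -1.43 and 0.623 points in blocks 1, 2 and 3, and in dHC it was 2.00, -0.790 and -1.60 points. The sign of the dHC value in block 2 rests on library 24. There the control dHC shares were 16.004% (library 24) and 9.76% (library 18), and the stressed dHC shares were 11.3% and 12.9%. Each block held 2 libraries of each group, or 4 in the case of control vHC in block 1.

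The normalised counts gave the same picture. For mir-9-2 the log2 difference between stressed and control mice was 0.0020 in vHC (SE 0.13, 95% confidence interval -0.26 to 0.27, adjusted p = 0.9996) and -0.0020 in dHC (SE 0.14, interval -0.29 to 0.28, adjusted p = 0.999) by the quasi-likelihood test of edgeR, adjusted over 463 entries by the Benjamini-Hochberg method. The other two entries differed from it by less than 0.001. The interaction of stress and region was -0.0039 (SE 0.19, adjusted p = 0.998), and the test of stress and interaction together gave an adjusted p of 0.9998. Without library 24, the edgeR value was 0.13 for stress in dHC (adjusted p = 0.936), 0.12 for the interaction (adjusted p = 0.992) and 0.013 for stress in vHC (adjusted p = 0.983). Among the 463 entries, 0 (0%) were called for stress in vHC, in dHC, for the interaction or for both terms together, in edgeR and in DESeq2. At an unadjusted p below 0.05, edgeR counted 34, 17, 23 and 16 entries in these tests. As changes of the mir-9 level, the intervals ran from -16.7% to 20.3% in vHC and from -17.9% to 21.5% in dHC. In bulk tissue a difference could come from fewer cells with the miRNA or from less of it in each cell, and these cannot be told apart.

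Of the 28 other neural miRNA entries, 28 were tested and 0 were called for stress in either region, with a median log2 difference of -0.03 in vHC and -0.05 in dHC, beside -0.03 and 0.02 over all entries. The largest absolute differences in the list were -0.26 (SE 0.105, adjusted p = 0.617) for let-7b in vHC and -0.23 (SE 0.109, adjusted p = 0.982) for mir-125b-1 in dHC (edgeR, Benjamini-Hochberg). Of the marker entries for cell types (8 for choroid plexus and ciliated cells, 4 for microglia and other immune cells, 3 for oligodendrocytes, 3 for endothelial and mural cells, 4 for red blood cells and 5 for neurons), all were tested and 0 were called for stress in either region. The 5 neuronal entries, the copies of mir-124 and mir-128, are also among the 28 neural entries.

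The second comparison was between regions. Control dHC differed from control vHC by -0.245 percentage points of the miRNA counts (dHC minus vHC; two-sided exact permutation test, p = 0.812), and stressed dHC from stressed vHC by -0.0152 points (p = 0.987). The adjusted p was 0.987 for both in the exact permutation tests. Without library 24 the difference in control mice was -1.11 points, at an exact permutation p of 0.0606 (0.242 after adjustment). Within blocks 1, 2 and 3 the regional difference was -1.53, 0.593 and 0.209 points in control mice, and 0.738, 1.23 and -2.02 points after swim. The sign of the control value in block 2 rests on library 24. The other control dHC library of that block, library 18 (9.76%), lay below both control vHC libraries (11.7% and 12.9%).

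By edgeR with block in the model, the log2 difference of mir-9-2 between dHC and vHC was 0.0051 in control mice (SE 0.16, interval -0.32 to 0.33, adjusted p = 0.993) and -0.035 after swim (SE 0.17, interval -0.38 to 0.31, adjusted p = 0.948). None of the 3 mir-9 entries was called, against a background of 104 entries (22.5%) in control mice and 94 (20.3%) after swim, and DESeq2 and the other settings called none of them either. Without library 24 the value in control mice was -0.19 (adjusted p = 0.352). With surrogate variables in place of block, the values were 0.98 in control mice (adjusted p = 0.0581) and 0.98 after swim (adjusted p = 0.0649). Surrogate variables estimated with region in the null model can follow region itself. For that reason block was chosen for the region models. Whether the surrogate variables did so here was not tested.

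Some markers of other cells were called between the regions where mir-9 was not. In control mice, 5 of 8 choroid plexus and ciliated cell entries were higher in dHC (for example mir-34c, log2 difference 1.03, SE 0.209) and 3 were lower (for example mir-200b, -1.60, SE 0.180). The summed share of that list was 0.268% to 0.383% in control vHC and 0.279% to 0.664% in control dHC. All 3 oligodendrocyte entries were higher in dHC, with a median log2 difference of 0.50 and summed shares of 0.337% to 0.501% in control vHC and 0.461% to 0.739% in control dHC. Of the 4 red blood cell entries 2 were lower, mir-486a and mir-486b, whereas 0 of 4 microglial, 0 of 3 endothelial and mural, and 0 of 5 neuronal entries were called. After swim, 2 of the 8 choroid plexus and ciliated cell entries were higher in dHC and 3 lower, 3 of 3 oligodendrocyte entries were higher, 1 of 4 red blood cell entries was lower, and 0 microglial, endothelial and mural, or neuronal entries were called. None of the defining markers was undetected, since each passed the filter on low counts. Of the other neural miRNAs, which include the 5 neuronal entries, 0 of 28 were called in either condition. Their median log2 difference was 0.07 in control mice and 0.11 after swim, beside 0.01 and -0.00015 over all entries. Whether the cellular make-up of the dissected pieces moved the mir-9 level was not tested.

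Block, a date that the labels give each library, was tested next. The mean mir-9 share was 11.7% ± 1.15 in block 1 (SD, n = 10), 12.0% ± 1.92 in block 2 (SD, n = 8) and 11.4% ± 1.06 in block 3 (SD, n = 8), and the ranges of the 3 blocks overlapped. mir-9-2 differed by 0.10 on the log2 scale between blocks 2 and 1 (SE 0.14), by -0.029 between blocks 3 and 1 (SE 0.14) and by -0.13 between blocks 3 and 2 (SE 0.15). The joint edgeR test of block gave an adjusted p of 0.706 for all 3 mir-9 entries, against a background of 246 entries called (53.1%). Without library 24 the mean of block 2 was 11.5% ± 1.14 (SD, n = 7) and the adjusted p was 0.943.

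Depth was the measure that the mir-9 level did follow. The 8 libraries with fewer than 2000000 miRNA counts had shares of 11.7% to 16.004% (median 12.9%), or up to 13.7% without library 24. The 9 libraries with 2000000 to 3000000 had 11.0% to 12.2% (median 11.2%), and the 9 with more than 3000000 had 9.29% to 11.3% (median 10.8%). The shallow libraries held the higher shares, and their range did not overlap that of the deep ones. In library 28 the total was 10.4 times that of library 24, while the mir-9 count, 447639 against 74482, was 6.01 times as high.

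**Figure D2:**
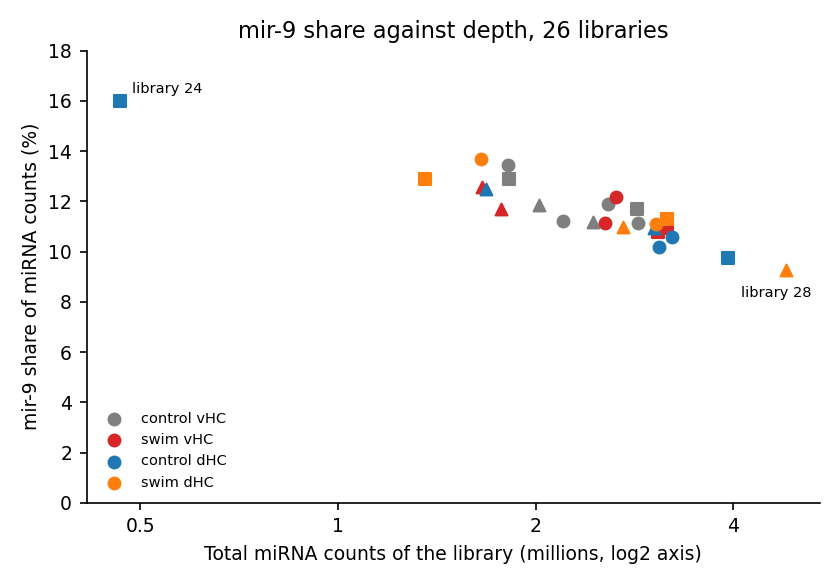
Share of miRNA counts held by mir-9 (y axis, percent) against the total miRNA count of each library, from 465387 to 4819724 (x axis, log2 scale), with the group as the colour and the block as the symbol (circle, square and triangle for blocks 1, 2 and 3). The share was 16.004% in library 24, the shallowest, and 9.29% in library 28, the deepest. Its Pearson correlation with the log2 total was negative in every group and block, and did not pass the threshold in stressed vHC. By Spearman's rho, control dHC alone passed among the groups.

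Over the 26 libraries the share correlated with the log2 total at Pearson r = -0.931 and Spearman rho = -0.889 (permutation p = 1e-05 for each, the smallest value that the resampling allows, and adjusted p = 4.5e-05 over 9 relations), with a slope of -1.99 percentage points per doubling of the total. Without libraries 24 and 28, the 2 farthest from the median depth, r was -0.857 and rho was -0.858 (n = 24, permutation p = 1e-05 for each). Without library 24 alone, r was -0.885 and rho was -0.875 (n = 25, permutation p = 1e-05 for each). Within blocks 1, 2 and 3, r was -0.890 (n = 10, permutation adjusted p = 0.00292), -0.979 (n = 8, exact adjusted p = 0.000614) and -0.975 (n = 8, exact adjusted p = 0.000372), and rho was -0.842, -0.905 and -0.976. In block 2 without library 24, r was -0.930 (n = 7, exact permutation p = 0.00218) and rho -0.857 (p = 0.0238).

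The direction was the same within each group. In control vHC r was -0.753 (n = 8, exact permutation adjusted p = 0.0314), in control dHC -0.994 (n = 6, adjusted p = 0.00625) and in stressed dHC -0.940 (n = 6, adjusted p = 0.0214). In stressed vHC r was -0.751 (n = 6), and its exact permutation p of 0.104 did not pass the threshold. Spearman's rho was -0.738, -0.943, -0.714 and -0.771 in the same order of groups, and its adjusted exact permutation p passed the threshold in control dHC (0.025) alone. Control dHC holds 5 libraries without library 24, and the correlation in these was not computed. A share has the total as its denominator. The relation was also examined in normalised counts and with depth measured from other RNAs, but normalised counts are still scaled by the miRNA total.

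In an edgeR model with block, region, stress, their interaction and log2 total miRNA count, the normalised level of mir-9-2 fell by 0.42 on the log2 scale per doubling of the total (SE 0.0358, adjusted p = 6.09e-10, Benjamini-Hochberg). This amounts to a change of -25.1% per doubling (95% confidence interval -28.9% to -21.2%). mir-9-1 and mir-9-3 gave the same log2 value of -0.42. All 3 entries were called, against a background of 34 entries called (7.34%) and 26 called lower at greater depth (5.62%), and they had the 3 smallest p-values of the 463. These 3 results are nearly the same measurement, since the entries share their counts, and the background includes them. The median over all entries was 0.05 per doubling.

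The fall remained when depth was measured in other RNAs. It was -0.41 per doubling with the total of miRNAs other than mir-9, and -0.35 with the total of tRNA and rRNA entries (edgeR, adjusted p = 3.75e-10 and 4.99e-08). Only the depth term changed in these settings. The mir-9 counts were still scaled by the miRNA total of the same library, so the shared denominator was not removed. With the total miRNA count and no scaling factor, the value was -0.24 while the median over all entries was 0.23, so the distance of mir-9 from the other entries stayed similar. In that setting 199 entries were called higher and 8 lower. Leaving out each library in turn gave values from -0.50, without library 24, to -0.38.

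Other abundant miRNAs fell with depth as well. With copies summed, 401 miRNAs were tested, of which 13 were called lower and 6 higher at greater depth. mir-9 changed by -0.42 per doubling (SE 0.0378, adjusted p = 4.91e-09), mir-26a by -0.38 (SE 0.0517, adjusted p = 9.26e-06), mir-128 by -0.28 (SE 0.0535, adjusted p = 0.000927) and mir-125b by -0.23 (SE 0.0640, adjusted p = 0.0383) in edgeR. mir-124 had a value of -0.14 (SE 0.0544) and did not pass the test (adjusted p = 0.139). The differences between these slopes were not tested.

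Among the 28 other neural entries, 11 were called lower and 2 higher with depth, with a median of -0.14 per doubling. Over all 463 entries, 26 (5.62%) were called lower and 8 higher, with a median of 0.05. The 11 include copies of the same miRNA, which share counts, so they are not 11 separate miRNAs. The 2 neural entries that rose were the copies of mir-29b, mir-29b-1 and mir-29b-2, each by 0.38. The largest falls were those of mir-128-2 (-0.31) and let-7a-2 (-0.29). Of the cell type markers, 0 of 8 choroid plexus and ciliated cell, 0 of 4 microglial, 0 of 3 oligodendrocyte and 0 of 4 red blood cell entries were called for depth. Of the endothelial and mural entries 1 of 3, mir-143, was called lower (-0.24), and of the neuronal entries 2 of 5, the mir-128 copies, were. The files were made by collapsing reads with the same sequence and molecular tag, so a count is a distinct pair of sequence and tag. Whether the number of distinct tags limited the counts of the most abundant sequences was not tested.

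With depth in the model, the stress and region values of mir-9 had narrower errors. The log2 difference of mir-9-2 for stress was -0.017 in vHC (SE 0.0537, adjusted p = 0.924) and 0.069 in dHC (SE 0.0578, adjusted p = 0.831), and the interaction was 0.086 (SE 0.0787, adjusted p = 0.913). For region it was -0.085 in control mice (SE 0.0611, interval -0.21 to 0.04, adjusted p = 0.308) and -0.0054 after swim (SE 0.0649, adjusted p = 0.982), all by edgeR with Benjamini-Hochberg adjustment. No mir-9 entry was called, and the intervals then covered -8.44% to 6.75% for stress in vHC and -3.39% to 13.97% for stress in dHC. Without library 24 these models gave 0.024 (SE 0.0539) for stress in vHC, 0.048 (SE 0.0603) for stress in dHC, 0.025 (SE 0.0811) for the interaction, -0.028 (SE 0.0843) for region in control mice and 0.013 (SE 0.0815) for region after swim, with adjusted p-values of 0.825 to 0.999 in edgeR.

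**Figure D3:**
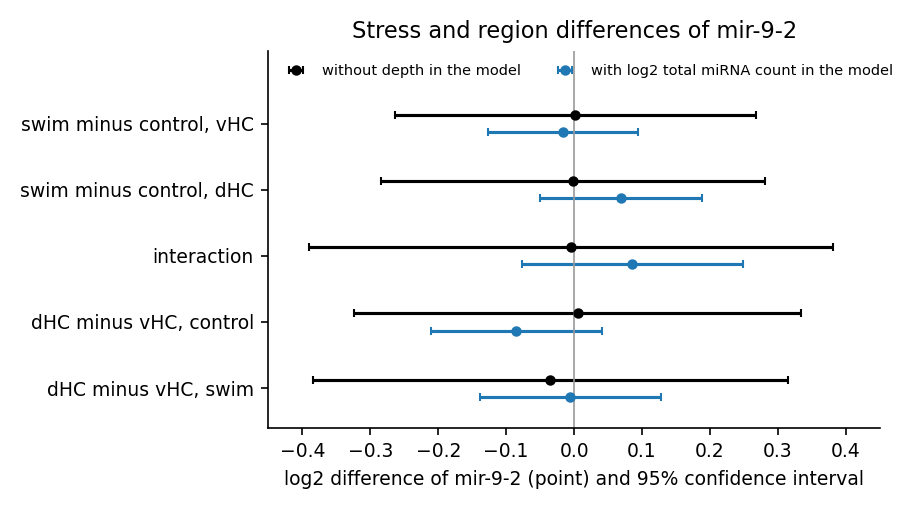
Log2 differences of mir-9-2 (x axis) for stress in each region, their interaction and region in each condition, as points with 95% confidence intervals, without depth (black) and with log2 total miRNA count in the model (blue). All 10 intervals include 0, and those with depth in the model are narrower.

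The miRNAs whose level was most like that of mir-9 were found by the Pearson correlation of log2 normalised CPM (counts scaled to library size) over the 26 libraries, among 400 miRNAs with copies summed. They were mir-26a (r = 0.886), let-7g (0.815), let-7f (0.812), mir-218 (0.748) and mir-128 (0.744), and the median over the 400 was -0.067. The lowest values were those of mir-1b (-0.745) and mir-325 (-0.703). Without library 24 the values of the first 5 were 0.794, 0.714, 0.763, 0.656 and 0.702, and those of mir-1b and mir-325 were -0.519 and -0.751. The same 5 miRNAs correlated with the log2 total at -0.839, -0.776, -0.735, -0.665 and -0.674, and mir-9 itself at -0.948, the lowest of 401, so the points share depth as well as library. These correlations are given as a description.

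The 3 mir-9 entries themselves were nearly equal in every library. The gap between the highest and the lowest entry was 0.0705% to 0.243% of their mean, with a median of 0.141%. In library 24 the counts were 24831.2 for mir-9-1, 24834.2 for mir-9-2 and 24816.7 for mir-9-3. The same gap was 0% to 0.0352% between the copies of mir-124 and 0.0519% to 0.238% between those of mir-26a. It was larger in let-7a (1.49% to 2.98%) and largest in mir-128 (15.3% to 26.8%). The summed mir-9 count was whole in 26 of 26 libraries (within 0.04), whereas 9 of the 78 single values were whole (within 0.02), and 78 of 78 were multiples of 1/6 (within 0.02). Such values are what an equal division of a count between 2 or 3 entries gives. At most 99.8% to 99.96% of a library's mir-9 count (3 times its lowest entry) can have been common to the 3 entries. How much was common was not measured.

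The small differences of mir-9-1 and mir-9-2 from mir-9-3 had a constant direction. mir-9-1 exceeded mir-9-3 in 26 of 26 libraries, by 14.5 counts in library 24 to 362.5 in library 28 (median 133.25). mir-9-2 exceeded mir-9-3 in 26 of 26 as well, by 17.5 to 325.5 counts in the same libraries (median 139.5). Between mir-9-1 and mir-9-2 there was no constant order, since mir-9-1 was higher in 9 libraries, lower in 16 and equal in 1, with differences of -14 to 37 counts. As the hairpins printed above show, mir-9-1 and mir-9-2 share more bases next to both arms with each other than with mir-9-3. Whether reads with these bases made up the difference was not tested.

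**Figure D4:**
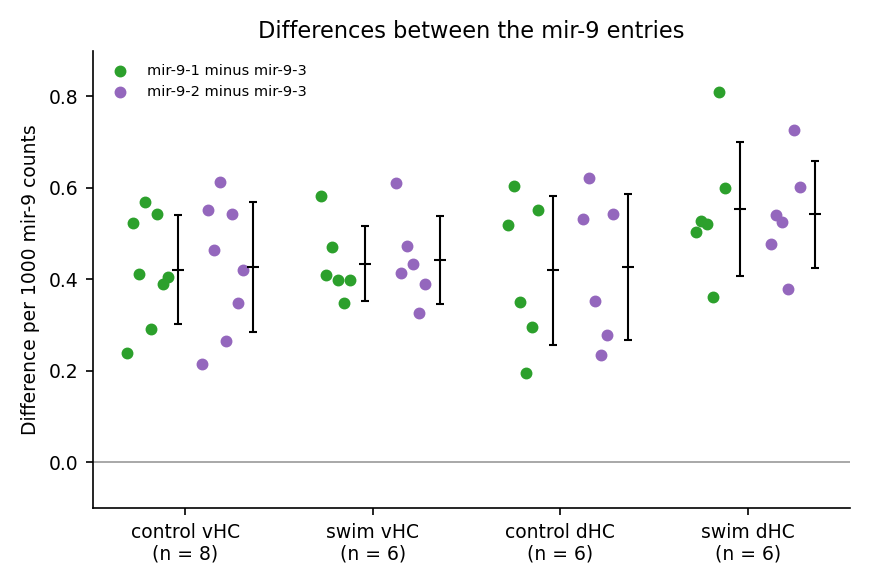
Difference between entries per 1000 mir-9 counts (y axis) in each library for mir-9-1 minus mir-9-3 (green) and mir-9-2 minus mir-9-3 (purple), by group, with the mean and SD beside the points. All points lie above 0, and the groups overlap.

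Per 1000 mir-9 counts, mir-9-1 exceeded mir-9-3 by 0.195 in library 24 to 0.810 in library 28. These are the shallowest and the deepest library, and whether this difference followed depth was not tested. The mean difference was 0.422 in control vHC, 0.435 in stressed vHC, 0.420 in control dHC and 0.554 in stressed dHC. Stressed and control dHC differed by 0.134 per 1000 (two-sided exact permutation test, p = 0.177), and by 0.115 in mir-9-2 minus mir-9-3 (p = 0.182). Without library 24 these differences were 0.0892 (exact permutation p = 0.338) and 0.0769 (p = 0.357). Between regions in control mice the differences were -0.0020 and -0.00052, and 0.0431 and 0.0379 without library 24. Between regions after swim they were 0.119 (exact permutation p = 0.102) and 0.101 (p = 0.141). Over the 8 exact tests the adjusted p ranged from 0.364 to 0.993, and none passed the threshold. The groups overlapped in every comparison.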

How the data were processed

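Small RNA was sequenced in 26 libraries, whose group and block came from their labels, and 0 columns of the table could not be matched to a library. The authors prepared NEXTflex libraries from total RNA in 3 batches, removed adapters (cutadapt), merged reads that agreed in sequence and in molecular tag, cut off the tag and assigned the sequences to annotated small RNAs with Sports (GRCm38 in the submitters' processing notes). The authors deposited expected counts of each entry without normalization, of which 29.5% were not whole. A sequence that fits several entries is divided between them.

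Counts were rounded, entries with low counts were removed (filterByExpr, minimum count 10, minimum total 15), which left 463 entries holding 99.97% of the miRNA counts, and TMM factors were computed. Total miRNA counts of 465387 to 4819724 set the counting precision. edgeR 4.0.16 quasi-likelihood tests (R 4.3.3, limma 3.58.1) used Benjamini-Hochberg adjustment and a threshold of 0.05. Stress was tested in a model of region, stress, interaction and 2 surrogate variables (sva 3.50.0), as in the study's methods. The models for region and block held block and no surrogate variables, and that for depth added log2 total miRNA count, a test chosen after seeing the data, as were its values without library 24. DESeq2 1.42.0 was an alternative. Standard errors came from the quasi-likelihood fit. Shares and copy differences were compared by exact permutation tests and correlations by permutation (100000 resamples above 8 libraries), in Python 3.11.15 with scipy 1.17.1 and matplotlib 3.10.9. Scripts were tested on simulated data. Of 73 replicate pairs, 0 were identical, and all differed by more than sampling noise. Genome context came from GENCODE vM21. Sequences came from RefSeq (GRCm38.p6).

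Named miRNAs are the mir-9 entries, miRNAs sharing a seed with them, the 5 most and 2 least correlated, the 5 most abundant, and up to 4 of a list of neural miRNAs. The members and lists were chosen with earlier results of these data known.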

Additional observations from a re-analysis of the deposited data

Results flagged for a closer look

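Library 24, a control dHC library of block 2, stood far from the other 5 of its group in the normalised level of each mir-9 entry. Its CPM values were 71215.1 for mir-9-1, 71223.7 for mir-9-2 and 71174.9 for mir-9-3, and the next highest values in the group were 44669.2, 44666.6 and 44629.7. The gap made up 0.636 of the group's range, above Dixon's critical value of 0.625 for 6 libraries. The 3 values are nearly the same measurement, since the entries share their counts. The mir-9 share of library 24 did not pass the same test in its group. The TMM factor of this library was 0.749. In all, 6 measures were examined in each of the 4 groups, 24 combinations, at both the lowest and the highest library. By chance about 1 in 20 combinations would pass. The library had 465387 miRNA counts, the fewest of the 26, and the part of depth in its value was not tested apart from the models with depth.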

How the results depend on the processing

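No paired analysis was possible because each library carries its own number in the labels, so no 2 groups share replicate numbers. In 12 cases consecutive numbers join a vHC and a dHC library of the same treatment and block, but the labels do not say that these share an animal, and they were not paired. No stress, region or block value of mir-9 passed the threshold under any alternative, and the fall with depth passed it under each of the 12 alternatives and without each library. Values near 0 changed sign, alike in the 3 entries. For stress in vHC the values were -0.015 with no scaling factor, -0.072 with no filter, -0.017 with depth in the model, -0.052 (mir-9-3 -0.053) with block and -0.053 with neither block nor surrogate variables. For stress in dHC they were 0.020 (mir-9-3 0.019) with no scaling factor, 0.00033 and 0.00026 (mir-9-1 and mir-9-2) with mir-9 left out of the library sizes, 0.012 (mir-9-3 0.011) with no filter and 0.069 with depth. The interaction was 0.035 (mir-9-3 0.034) with no scaling factor, 0.083 with no filter and 0.086 with depth. For region in control mice the values were -0.033 with no scaling factor, -0.0030 (the others -0.0029) for mir-9-1 with mir-9 left out, -0.026 with no filter and -0.085 with depth. For region after swim the value with surrogate variables, which can follow region itself, was 0.97 for mir-9-1 and 0.98 for the others. The causes of these changes were not tested.

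Leaving out each library in turn gave log2 values of -0.055 to 0.067 for stress in vHC, -0.17 to 0.13 for stress in dHC, -0.15 to 0.12 for the interaction, -0.19 to 0.10 for region in control mice and -0.14 to 0.046 (mir-9-3 0.045) for region after swim. Differences in share were -1.11 to 0.138 points for region in control mice, -0.448 to 0.435 for region after swim, -0.565 to 0.735 for stress in dHC and -0.566 to -0.143 for stress in vHC. Copy differences per 1000 counts were -0.0164 to 0.0342 (mir-9-1 minus mir-9-3) and -0.0200 to 0.0403 (mir-9-2 minus mir-9-3) for stress in vHC, -0.0388 to 0.0431 and -0.0394 to 0.0379 for region in control mice, 0.0831 to 0.173 and 0.0769 to 0.154 for stress in dHC, and 0.0680 to 0.157 and 0.0641 to 0.135 for region after swim.

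The number of entries called for region in control mice was 67, in place of 104, with neither block nor surrogate variables, and after swim it was 59 with surrogate variables and 56 with neither, in place of 94. For depth it was 207 with no scaling factor, 19 with copies summed and 19 with no block, in place of 34, and between 21 (without library 28) and 53 (without library 6) with 1 library left out. With depth in the model, the error of mir-9-2 for stress in vHC was 0.0537 in place of 0.13 at the same number of libraries.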
